A study of Homo sapiens with 6 samples.

Results

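The RNA levels of 9 genes of the p53 pathway were followed after overexpression of the RNA demethylase ALKBH5 in Huh-7 cells, an established human hepatocellular carcinoma line. The 9 genes were taken by name and by their Entrez identifier in the deposited tables, with no threshold on their values but with earlier results of these data known. They make up 9 of 18030 genes and 40 of 80668 transcripts listed. They are MDM2 and MDM4, which restrain p53, the mitochondrial death genes BBC3, BAX and PMAIP1, the death receptor genes FAS, TNFRSF10A and TNFRSF10B, and SESN1, a stress gene. The first group holds 3 libraries labelled oeALKBH5, from cells that carried a plasmid for ALKBH5. The second group holds 3 libraries labelled Control, with a wild-type genotype, which the design text calls parental cells. All samples share the Huh-7 background and growth in DMEM with 10% FBS. The labels give the same electroporation text (1250 V, 20 ms, 3 pulses, RNA 60 h later) for both groups, and do not say whether Control cells received an empty plasmid. Overexpression was transient, and which promoter drives ALKBH5 in the plasmid is not stated. The labels call the samples biological replicates without saying that they came from separate cultures, so the p-values speak only to library-to-library spread, which may be technical.

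p53 is a transcription factor that binds DNA as a tetramer and switches on genes for cell cycle arrest, repair and death. MDM2 is an E3 ubiquitin ligase that marks p53 for degradation and is itself a p53 target, which closes a feedback loop. MDM4 is a related protein that binds p53 and blocks its activation domain. ALKBH5 removes the methyl group from N6-methyladenosine in RNA. Huh-7 cells are known to carry a mutant p53, so the genes here are p53 targets or regulators by what is known from other cells. p53 itself is not among the 9 genes.

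These promoter windows are printed because MDM2 is the classic p53 target of the set and BBC3 is a gene whose level changed. Both come from RefSeq with build GRCh38.p14, run from 250 bases before to 50 bases after an annotated start, and are written 5′ to 3′ on the strand of the gene. Capitals mark matches to the p53 response element, a pair of adjoining decamers searched on both strands with at most 3 mismatches in 20 bases. That limit was chosen so that the known MDM2 pair was included. The MDM2 window lies at chr12:68808767-68809066 on the plus strand and the BBC3 window at chr19:47232618-47232917 on the minus strand.
MDM2: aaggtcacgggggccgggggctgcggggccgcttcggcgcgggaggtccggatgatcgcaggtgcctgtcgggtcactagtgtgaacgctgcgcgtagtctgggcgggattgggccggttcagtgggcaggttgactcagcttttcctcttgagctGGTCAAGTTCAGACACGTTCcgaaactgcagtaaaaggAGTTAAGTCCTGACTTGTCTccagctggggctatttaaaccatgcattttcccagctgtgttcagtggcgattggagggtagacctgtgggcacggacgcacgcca
BBC3: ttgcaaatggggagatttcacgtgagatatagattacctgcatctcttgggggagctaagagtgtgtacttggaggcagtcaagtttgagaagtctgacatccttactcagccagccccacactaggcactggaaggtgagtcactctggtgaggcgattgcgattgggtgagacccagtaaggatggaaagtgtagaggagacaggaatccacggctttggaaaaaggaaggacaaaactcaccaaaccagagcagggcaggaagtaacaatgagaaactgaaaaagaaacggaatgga
The MDM2 window held 2 matches, 94 and 56 bases before the start, with 2 and 3 mismatches. The 2 MDM2 windows farther upstream held no match. The MDM2 transcript with the highest mean level, NM_002392.5, begins at position 68808176 in those windows, outside the printed one. No match stood in the BBC3 window, and the BBC3 transcript with the highest level, NM_014417.5, begins at position 47231194 outside this window. Of 35116 RefSeq windows of this length, 1826 (5.2%) held a match. Windows of 7 of the 9 genes were searched, 14 windows in all, and 5 of them held a match. Among these are 2 overlapping MDM2 windows that share the same pair, which the mismatch limit was chosen to include. The 5 of 14 is therefore no test against the 5.2%.
Single matches in the other genes are given to show how far they depart from one another, with their distance before the start.
PMAIP1: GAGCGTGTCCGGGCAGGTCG
FAS: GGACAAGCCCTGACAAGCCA
SESN1: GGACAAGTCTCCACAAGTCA
The PMAIP1 match began 185 bases before the start with 3 mismatches, the FAS match 122 bases before with 2, and the SESN1 match 49 bases before with 3. The other windows of FAS and SESN1 held no match. Among them is the window at the start of NM_001199933.1, the SESN1 transcript with the highest level. MDM4 and BAX had no match in their windows. A match is a likeness of letters and not a measured binding site.

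Levels are given as CPM, counts scaled to a common library size with TMM factors, from the deposited estimated counts. Total counts were 18607041 to 18826448 in oeALKBH5 and 19265656 to 19377988 in Control libraries. A gene was called at a Benjamini-Hochberg adjusted p under 0.05 in edgeR's quasi-likelihood test over all 14168 genes tested. ALKBH5 itself stood at 168.8, 133.0 and 110.4 CPM in oeALKBH5 and 70.55, 74.22 and 75.48 CPM in Control libraries, 1.87-fold higher (log2 fold change 0.90, SE 0.18, edgeR adjusted p 0.0154). Leaving out Control replicate 2 or 3 gave adjusted p of 0.0529 and 0.0589 for ALKBH5, so its call was lost without either. Of all genes tested, 6062 (42.8%) were called, 2948 (20.8%) higher and 3114 (22.0%) lower, while scaling by library size alone gave 4266 higher and 2047 lower. Hepatocyte markers were lower in oeALKBH5 cells: 9 of 9 were called lower, and their summed level was 21980 to 23600 CPM against 33710 to 34270 CPM in Control. Scaling by library size alone called 8 of the 9 lower. APOA1, an apolipoprotein, and GPC3, a fetal liver proteoglycan, had log2 fold changes of -1.05 and -0.84. Of 11 markers of blood, endothelial and stromal cells 7 were tested, and their 11 summed to 171.5 to 195.8 CPM against 177.9 to 185.1 CPM, with none at 0 in all libraries. Most of that sum is 1 gene, CD68, with 129.0 to 154.2 CPM against 136.1 to 139.8 CPM. PTPRC, which marks blood cells, had 1.41 to 1.61 CPM against 1.29 to 2.02 CPM, and CD3E, VWF, CDH5 and DCN were below 1 CPM in every library, with CD3E and DCN at 0 in 2 oeALKBH5 libraries each. The collagen genes COL1A2 and COL1A1 were called higher (0.92 and 1.07), and PECAM1 and LUM, a cell adhesion protein and a proteoglycan, lower (-0.70 and -0.55). The LUM call did not survive leaving out oeALKBH5 replicate 2 (adjusted p 0.0507), nor did it survive the loss of Control replicate 1 (adjusted p 0.0732). The part of these shifts in the results below was not tested, and in bulk RNA fewer cells of a type and less RNA per cell cannot be told apart.

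Of the 9 genes, 2 were called, both higher in oeALKBH5 cells: TNFRSF10B and BBC3. This count of 2 of 9 stands beside 42.8% of all genes called. None of the 9 was called lower by edgeR, DESeq2 or limma-voom, 1 of them (BAX) had an unadjusted edgeR p under 0.05 in that direction, and 7 did not pass. The median log2 fold change of the 9 was 0.04, against 0.01 over all genes tested. Of the 9 estimates 6 were positive and 3 negative. On the authors' FPKM values (fragment counts scaled by transcript length and library size), summed over a gene's transcripts and tested with limma on log2(FPKM + 1), 8 of the 9 could be tested and TNFRSF10B and BBC3 were called higher, where 45.9% of all 12016 genes were called (29.4% higher and 16.5% lower).

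**Figure D1:**
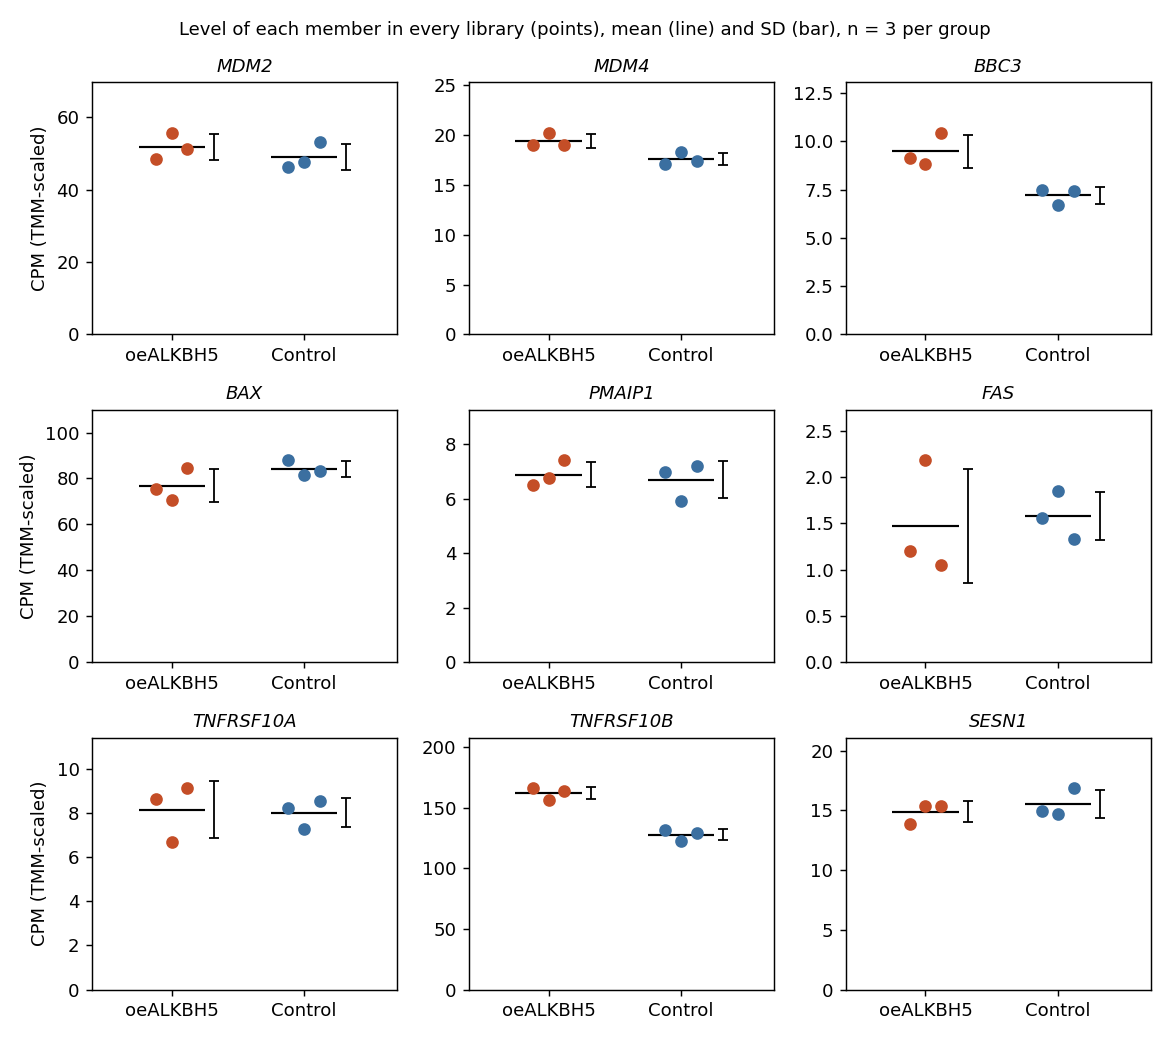
Level of each of the 9 genes in every library, in TMM-scaled CPM, with oeALKBH5 left of Control (points are libraries, lines means, bars SD, n = 3 each). The points of the groups stand apart for MDM4, BBC3 and TNFRSF10B and overlap for the other 6 genes.

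The repressor genes MDM2 and MDM4 did not pass the test. MDM2 (Entrez 4193, GRCh38 chr12:68808176-68850686, plus strand; all gene positions below use this build) had 48.55, 55.68 and 51.19 CPM in oeALKBH5 and 46.21, 47.51 and 53.13 CPM in Control libraries. The groups overlapped, with Control replicate 3 above 2 of the oeALKBH5 libraries. The log2 fold change was 0.08 (SE 0.06, 95% interval -0.05 to 0.22, edgeR adjusted p 0.323), so the upper end of the interval is 1.16-fold. The MDM2 estimate moved to 0.13, 0.03, 0.04 and 0.14 without oeALKBH5 replicate 1, oeALKBH5 replicate 2, Control replicate 1 and Control replicate 3, and to 0.16 with library size alone, and passed in none of these. MDM4 (Entrez 4194, chr1:204516379-204558120, plus strand) had 18.92, 20.19 and 18.94 CPM in oeALKBH5 and 17.09, 18.27 and 17.36 CPM in Control libraries. Every oeALKBH5 library was above every Control library, but the log2 fold change of 0.14 (SE 0.07, interval -0.02 to 0.29) missed the threshold (edgeR adjusted p 0.138). Groups did not overlap in 3 of the 9 genes, all higher in oeALKBH5, beside 52.8% of all genes tested (25.8% higher and 27.0% lower). With library size alone in place of TMM the MDM4 estimate was 0.22 and passed (adjusted p 0.0241). The ratio of MDM4 to MDM2 FPKM within a library was 0.319 ± 0.022 in oeALKBH5 and 0.306 ± 0.031 in Control (SD, n = 3 each; exact two-sided permutation p 0.6, where 0.1 is the smallest that 3 against 3 allow).

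BBC3 encodes PUMA, a BH3-only protein that binds the BCL2 survival proteins and frees the pore formers. BBC3 (Entrez 27113, chr19:47220822-47232766, minus strand) had 9.15, 8.82 and 10.4 CPM in oeALKBH5 and 7.47, 6.71 and 7.43 CPM in Control libraries. These rest on 176, 170 and 200 counts against 139, 127 and 140 counts, and the lowest oeALKBH5 library lay above the highest Control library. BBC3 was 1.32-fold higher (log2 fold change 0.39, SE 0.11, 95% interval 0.17 to 0.62, edgeR adjusted p 0.00595). Its FPKM was 5.64 ± 0.52 against 4.08 ± 0.05 (SD, n = 3 each), with a difference of 0.39 on the log2(FPKM + 1) scale (limma adjusted p 0.00107).

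BAX is a pore former of the outer mitochondrial membrane. BAX (Entrez 581, chr19:48954815-48961798, plus strand) had 75.47, 70.73 and 84.58 CPM in oeALKBH5 and 87.90, 81.35 and 83.23 CPM in Control libraries. The third oeALKBH5 library lay inside the Control range and the other two below it. The log2 fold change of -0.13 (SE 0.06, 95% interval -0.26 to -0.0033) did not pass (edgeR adjusted p 0.0909). It moves with single libraries: without oeALKBH5 replicate 3 the estimate was -0.20 (adjusted p 0.00454), and without oeALKBH5 replicate 2 it was -0.069. On the log2(FPKM + 1) scale BAX was at -0.07 (limma adjusted p 0.442), and at 0.0069 without oeALKBH5 replicate 2. PMAIP1 encodes NOXA, a BH3-only protein that binds MCL1. PMAIP1 (Entrez 5366, chr18:59899948-59904306, plus strand) had 6.50, 6.75 and 7.41 CPM in oeALKBH5 and 6.99, 5.91 and 7.22 CPM in Control libraries. The groups overlapped and the log2 fold change was 0.04 (SE 0.12, 95% interval -0.21 to 0.28, edgeR adjusted p 0.820), turning to -0.02 without oeALKBH5 replicate 3 and to -0.05 without Control replicate 2. So of the 3 mitochondrial death genes BBC3 alone passed, and the differences between the genes were not tested.

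The death receptors pass a signal from a ligand outside the cell to caspases inside it. TNFRSF10A and TNFRSF10B are the receptors for the ligand TRAIL that carry a death domain. TNFRSF10B (Entrez 8795, chr8:23020133-23069179, minus strand) had 166.1, 156.5 and 163.3 CPM in oeALKBH5 and 131.6, 122.4 and 128.9 CPM in Control libraries. All oeALKBH5 libraries were above all Control libraries, by more than the spread within either group. TNFRSF10B was 1.27-fold higher (log2 fold change 0.34, SE 0.05, 95% interval 0.24 to 0.44, edgeR adjusted p 9.92e-06). Its FPKM was 42.5 ± 1.14 against 31.7 ± 0.96 (SD, n = 3 each), a difference of 0.41 on the log2(FPKM + 1) scale (limma adjusted p 4.59e-05). TNFRSF10A (Entrez 8797, chr8:23190452-23225126, minus strand) had 8.63, 6.70 and 9.13 CPM in oeALKBH5 and 8.22, 7.29 and 8.55 CPM in Control libraries. The oeALKBH5 values lay on both sides of the Control values, and the log2 fold change was 0.02 (SE 0.12, 95% interval -0.23 to 0.28, edgeR adjusted p 0.892). Its sign turned without oeALKBH5 replicate 1 (-0.02), oeALKBH5 replicate 3 (-0.06) or Control replicate 2 (-0.04). The ratio of TNFRSF10B to TNFRSF10A FPKM was 13.6 ± 1.92 in oeALKBH5 and 10.8 ± 0.62 in Control (SD, n = 3 each), with no overlap and the smallest exact permutation p possible, 0.1 (0.25 adjusted over the 5 ratios computed).

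FAS is the receptor for the FAS ligand. FAS (Entrez 355, chr10:88990582-89015785, plus strand) had 23, 42 and 20 counts in oeALKBH5 and 29, 35 and 25 counts in Control libraries, which is 1.195, 2.18 and 1.044 CPM against 1.56, 1.85 and 1.33 CPM. The second oeALKBH5 library was above all others and the other two below all Control libraries. The log2 fold change of -0.10 had a 95% interval of -0.67 to 0.47 (SE 0.27, edgeR adjusted p 0.797), which spans both directions. It was -0.49 without oeALKBH5 replicate 2 and -0.21 without Control replicate 3. The sign turned to 0.03 without oeALKBH5 replicate 1, 0.10 without oeALKBH5 replicate 3 and 0.03 without Control replicate 2. The FAS level covers only the 5 transcripts listed for it, 4 of them predicted models, and other FAS transcripts were not analysed here, so it may be a partial level.

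SESN1 encodes sestrin 1, a stress protein that restrains the growth kinase complex mTORC1 through the GATOR complexes. SESN1 (Entrez 27244, chr6:108986437-109094819, minus strand) had 13.88, 15.41 and 15.39 CPM in oeALKBH5 and 14.94, 14.73 and 16.88 CPM in Control libraries. The groups overlapped and the log2 fold change was -0.06 (SE 0.09, 95% interval -0.24 to 0.12, edgeR adjusted p 0.606). It was 0.02 with library size alone and 0.0048 without Control replicate 3.

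**Figure D2:**
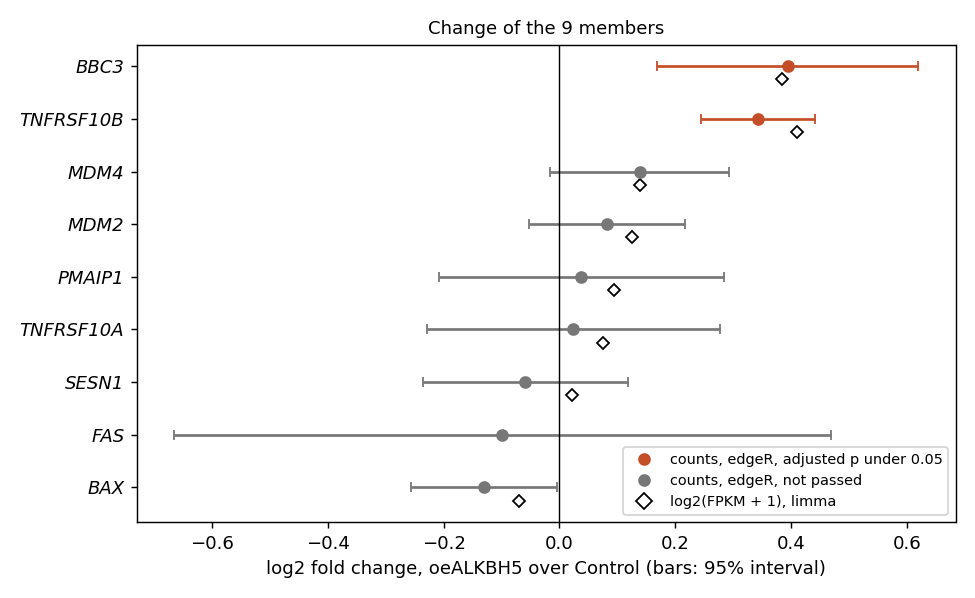
Log2 fold change of oeALKBH5 over Control for the 9 genes from the counts (circles, bars are 95% intervals) and on the log2(FPKM + 1) scale (diamonds; FAS was not tested there). The intervals of BBC3 and TNFRSF10B lie above 0. That of BAX lies just below 0 (-0.26 to -0.0033), though BAX did not pass after adjustment. That of FAS is the widest, from -0.67 to 0.47.

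Per length, on the FPKM scale, BAX was the most abundant of the 9 (91.3 ± 10.4 in oeALKBH5, 95.6 ± 4.2 in Control; SD, n = 3 each), followed by TNFRSF10B. MDM2 (6.53 ± 0.60 against 5.89 ± 0.48 FPKM), BBC3 and SESN1 (4.69 ± 0.28 against 4.61 ± 0.34 FPKM) came next. The 6 libraries of MDM2 and BBC3 overlapped in range, as did those of BBC3 and SESN1. PMAIP1 (3.82 ± 0.24 against 3.52 ± 0.35 FPKM) and TNFRSF10A (3.17 ± 0.47 against 2.95 ± 0.23 FPKM) also overlapped. MDM4 (2.08 ± 0.09 against 1.79 ± 0.08 FPKM) and FAS (0.21 ± 0.09 against 0.29 ± 0.04 FPKM) were lowest, where the FAS value covers its 5 listed transcripts only and may be partial. The 3 genes whose profile over the 6 libraries was most like that of MDM2, out of 12433 compared, were UHMK1, CSNK1G1 and QTRT2. Their root mean square difference from MDM2 was 0.018, 0.027 and 0.029 in centred log2 CPM. MDM2 itself did not pass between the groups, and whether this likeness goes beyond library-to-library spread was not tested.

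At transcript level 31 of the 40 listed transcripts were tested and none passed, beside 461 of 45502 transcripts (1.01%) over the whole table, 0.281% higher and 0.732% lower. Only 1 of the 31, TNFRSF10B NM_003842.5, had an unadjusted p under 0.05 in edgeR's test. In usage, the change of a transcript relative to the others of its gene, 28 were tested and none passed or had an unadjusted p under 0.05, beside 0.0606% of all transcripts tested (0.0267% higher and 0.0339% lower). In simulated data the transcript test recovered 0 of 50 transcripts changed by a fold just below that of the TNFRSF10B gene. It recovered 46 of 50 changed 2-fold. The usage test recovered 0 of 42 at the smaller fold and 21 of 47 at 2-fold. The simulation gave all transcripts the same dispersion (spread between libraries) and changed only those with a mean count above 50. Of the 40 listed transcripts 19 were at 0 in at least 1 library, so these recoveries need not hold for them. The lack of calls thus cannot tell whether transcripts or their usage changed by as little as the TNFRSF10B gene did. For the unsteady transcripts it cannot tell at 2-fold either. TNFRSF10B has 2 listed transcripts. NM_003842.5, with 9 exons and a protein of 440 residues, had 23.63, 24.64 and 27.27 FPKM in oeALKBH5 and 17.23, 15.57 and 19.69 FPKM in Control libraries. NM_147187.3, with 10 exons and 411 residues, had 20.05, 16.76 and 15.16 FPKM in oeALKBH5 and 15.31, 15.11 and 12.32 FPKM in Control libraries. The longer protein's transcript stood apart between the groups and the other overlapped, at log2 fold changes of 0.45 (SE 0.11, edgeR adjusted p 0.158) and 0.21 (SE 0.14, adjusted p 0.862). NM_003842.5 held 59.3 ± 5.1% of the gene's FPKM in oeALKBH5 and 55.1 ± 5.7% in Control (SD, n = 3 each), and the test of usage gave an unadjusted p of 0.689 for it.

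The other genes gave no call by transcript either. BBC3 NM_014417.5, which encodes 193 residues, had 4.63, 3.33 and 4.06 FPKM in oeALKBH5 and 2.64, 2.29 and 3.13 FPKM in Control libraries, without overlap (log2 fold change 0.51, SE 0.28, edgeR adjusted p 0.742). The MDM4 transcript NM_001204172.1, with 3 exons and 164 residues, held 16.6, 20.6 and 19.5% of MDM4 FPKM in oeALKBH5 and 10.3, 7.4 and 11.4% in Control libraries. Its log2 fold change of 1.13 (SE 0.46) had an edgeR adjusted p of 0.476. The full-length MDM2 transcript NM_002392.5, which encodes 497 residues, held 16.5 to 44.5% of MDM2 FPKM in oeALKBH5 and 16.0 to 42.4% in Control libraries, a spread as wide within groups as between them. BAX NM_138761.4, of 192 residues, held 54.5 ± 3.9% against 58.4 ± 0.5% of BAX FPKM (SD, n = 3 each). In SESN1 the split was steady: NM_001199933.1, of 492 residues, held 79.0 ± 0.7% against 78.4 ± 1.1%. The estimates of single transcripts are unsteady, since 19 of the 40 were at 0 in at least 1 library.

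**Figure D3:**
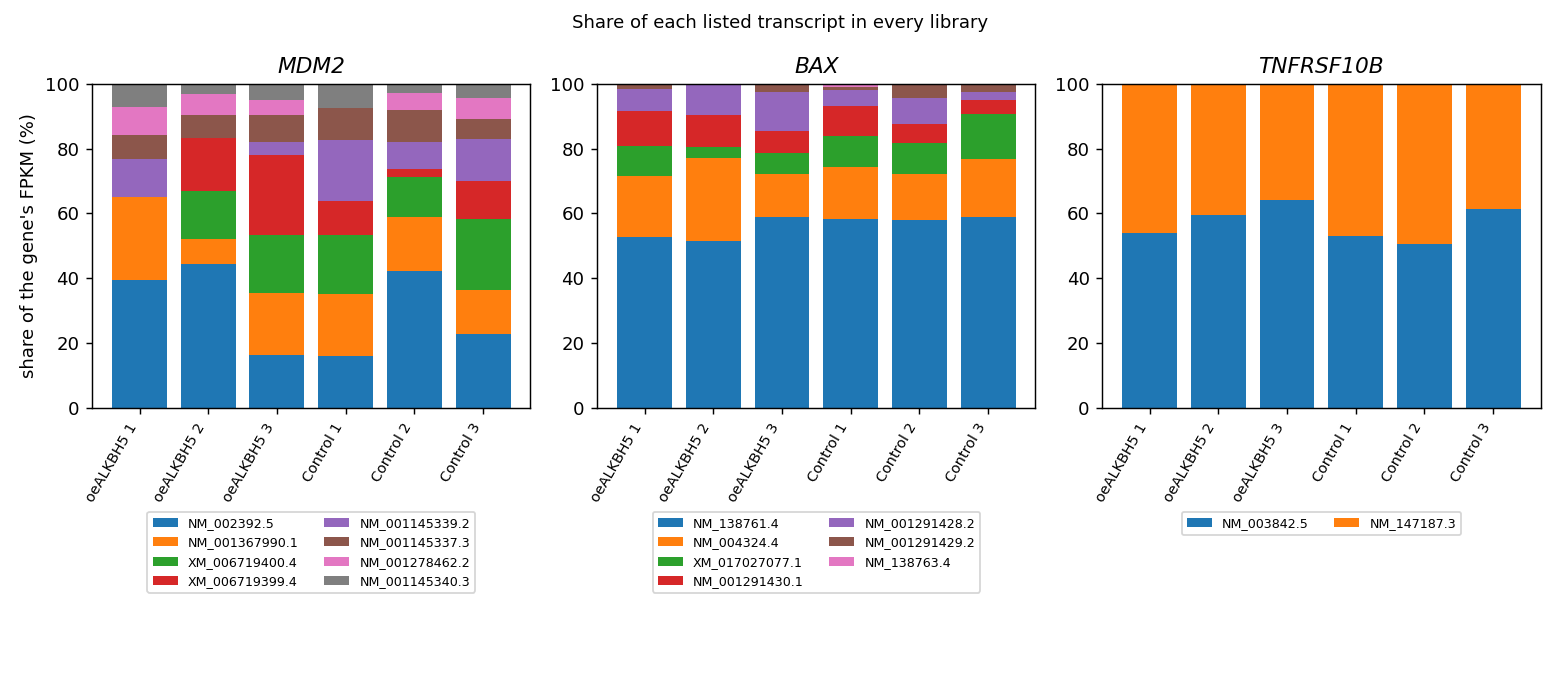
Share of each listed transcript in the FPKM of MDM2, BAX and TNFRSF10B, in percent, with a bar for each library with the 3 oeALKBH5 libraries left of the 3 Control libraries. MDM2 NM_002392.5 varies from 16.0 to 44.5% over the 6 libraries, while the TNFRSF10B split stays between 50.7 and 64.3% for NM_003842.5.

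Some of the 9 genes overlap others from start to end of the gene, introns included. Whether exons overlap was not checked and the counting's strand setting is not stated, so whether any reads are shared is not known. TNFRSF10B overlaps RHOBTB2 and an antisense RNA. RHOBTB2 had 30.09, 30.41 and 30.63 CPM in oeALKBH5 and 26.22, 26.03 and 23.67 CPM in Control libraries, and was also called higher (log2 fold change 0.26, edgeR adjusted p 0.00307). MDM2 overlaps the carboxypeptidase M gene, called lower at -0.15 (edgeR adjusted p 0.0148), and SESN1 overlaps ARMC2 (-0.48, not passed, adjusted p 0.143). FAS overlaps ACTA2 and an antisense RNA. ACTA2 had 10, 6 and 4 counts in oeALKBH5 and 6, 5 and 5 counts in Control libraries, and was not tested.

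Related genes were read from lists by role, with counts of tested genes called by edgeR, beside 20.8% higher and 22.0% lower over all genes. Counts with library size alone stand beside 4266 of 14168 genes higher and 2047 lower in that setting. Some genes stand in more than 1 list, among them TNFRSF10D, SESN2, PPM1D and BID. Of 24 other p53 target genes tested 4 were higher and 10 lower, with a median log2 fold change of -0.07. Library size alone gave 6 higher and 8 lower. On FPKM, limma called 6 higher and 7 lower, beside 29.4% higher and 16.5% lower over all genes. CDKN1A, the cell cycle inhibitor p21, had 43.71, 36.07 and 38.25 CPM in oeALKBH5 and 72.91, 68.95 and 72.03 CPM in Control libraries (log2 fold change -0.86, SE 0.06, edgeR adjusted p 2.24e-09). CCNG1, a cyclin, fell by 0.51 on the log2 scale. PLK2, a kinase of the cell cycle and stress response, was higher by 0.61, and TNFRSF10D, a TRAIL receptor with a truncated death domain, by 0.33. TNFRSF10D had 85.71, 76.49 and 77.59 CPM in oeALKBH5 and 64.37, 62.29 and 64.28 CPM in Control libraries, and the ratio of TNFRSF10B to TNFRSF10D FPKM was 1.81 ± 0.07 against 1.79 ± 0.04 (SD, n = 3 each; exact permutation p 0.8).

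Beside BBC3 and PMAIP1, 7 other BCL2 family death genes were tested, of which 4 were higher and 1 lower, with a median of 0.30. BCL2L11, which encodes the BH3-only protein BIM, had 75.26, 82.20 and 83.38 CPM in oeALKBH5 and 57.38, 59.28 and 59.93 CPM in Control libraries (0.45, SE 0.05, edgeR adjusted p 1.74e-06). BMF, another BH3-only gene, was higher by 0.30, and BAK1, the second pore former beside BAX, fell by 0.31. Of 6 survival genes of the family 4 were tested and none was called by edgeR, DESeq2 or limma-voom, with 1, BCL2A1, at an unadjusted edgeR p under 0.05 (-0.48). Without oeALKBH5 replicate 2, 1 of the 4 was called lower. The ratio of BBC3 to BCL2L1 FPKM, a death gene over the survival gene for BCL-XL, was 0.0248 ± 0.0039 in oeALKBH5 and 0.0185 ± 0.0003 in Control (SD, n = 3 each), without overlap (exact permutation p 0.1, 0.25 adjusted over 5 ratios). The ratio of BAX to BCL2L1 was 0.400 ± 0.066 against 0.434 ± 0.018 (SD, n = 3 each; exact permutation p 0.4).

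Around the receptors, 12 genes of death receptor signalling were tested, with 5 higher, 3 lower and a median of 0.09. Library size alone gave 6 higher and 2 lower. TNFSF10, which encodes the ligand TRAIL, had 13.31, 17.18 and 12.63 CPM in oeALKBH5 and 20.47, 22.81 and 22.61 CPM in Control libraries (-0.61, SE 0.10, edgeR adjusted p 9.33e-05). So the ligand gene was lower while its receptor gene TNFRSF10B was higher. TNFRSF21, another receptor with a death domain, was higher by 0.43, and TNFRSF1A, a receptor for tumour necrosis factor, fell by 0.27. Of 13 genes of the apoptosome, caspases and their inhibitors 4 were higher and 5 lower, with a median of -0.01, and library size alone gave 4 and 2. BIRC3, an inhibitor of apoptosis, had the largest difference of these 13 at 1.06 (18.09, 17.07 and 14.40 CPM in oeALKBH5 and 7.20, 9.03 and 7.54 CPM in Control libraries). CASP2, a caspase gene, was higher by 0.24, while CASP9, the caspase of the apoptosome, and DIABLO, which antagonises the inhibitors, fell by 0.36 and 0.23.

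Upstream of MDM2, 19 regulators of p53 and MDM2 gave 7 higher and 8 lower, with a median of 0.01, and library size alone gave 8 and 4. On FPKM, limma called 8 higher and 3 lower, beside 29.4% higher and 16.5% lower over all genes. Without oeALKBH5 replicate 2, and likewise without Control replicate 1, 4 of these regulators were called higher. Over all genes, too, fewer were called higher in each of these settings than with all libraries. CDKN2A, whose ARF product binds MDM2, and TP53BP1, a DNA damage adaptor, were higher by 0.22 and 0.24. RPL11, a ribosomal protein that binds MDM2, and COP1, a ubiquitin ligase for p53, fell by 0.23 and 0.22. Around SESN1, 10 genes of the other sestrins and the GATOR complexes gave none higher (by edgeR, DESeq2 or limma-voom, and none at an unadjusted edgeR p under 0.05) and 5 lower, with a median of -0.12, whereas library size alone gave 1 higher and 3 lower. NPRL3 and SEC13, a GATOR1 and a GATOR2 subunit, fell by 0.44 and 0.32 on the log2 scale.

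**Figure D4:**
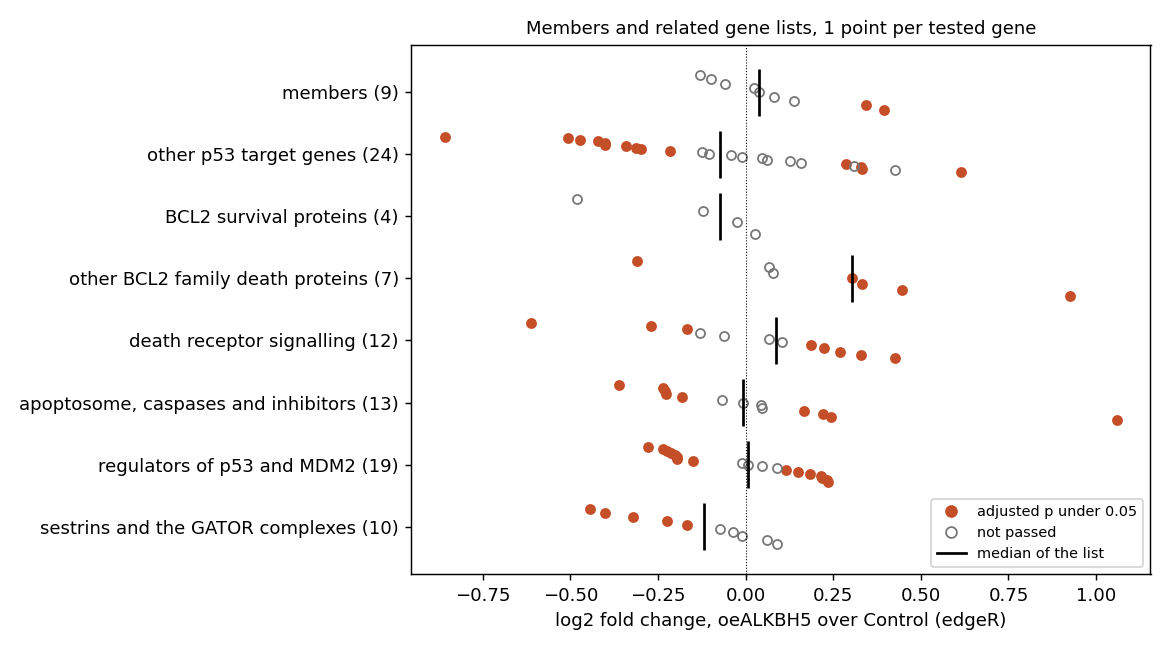
Log2 fold change of oeALKBH5 over Control for each tested gene of the 9 genes and of 7 related lists (filled points passed an adjusted p under 0.05, bars are medians, the number tested stands beside each name). The 9 genes run from -0.13 to 0.39 and the other p53 targets from -0.86 to 0.61.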

How the data were processed

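RNA of 3 oeALKBH5 and 3 Control samples of Huh-7 was sequenced with an mRNA library kit, per the labels' protocols. The authors deposited an estimated count and an FPKM value for each RefSeq transcript and sample. The submitters' processing notes name HISAT2 2.1.0, Bowtie2 2.2.5, RSEM 1.2.8 and GRCh38.p13. Strand setting and filters are not stated there.

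Estimated counts were summed by Entrez gene and rounded to whole numbers. Genes passing edgeR's filter (minimum count 10) were fitted with edgeR 4.0.16 in R 4.3.3 (TMM, robust quasi-likelihood), and transcripts likewise, with diffSpliceDGE for usage. FPKM values of at least 1 in 3 libraries were tested with limma 3.58.1 after adding a pseudocount of 1, so fold changes of low genes are understated on that scale. P-values were adjusted over all features tested. Scripts were tested on simulated data. Gene locations came from GENCODE (GRCh38), promoters from RefSeq.

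The 9 genes and the lists were chosen with earlier results of these data known. In each list up to 2 genes passing in each direction are named, by smallest p. Alternatives were DESeq2 1.42.0, limma-voom, library size alone, other filters and pseudocounts, a replicate block and leaving out each library.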

Additional observations from a re-analysis of the deposited data

How the results depend on the processing

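TNFRSF10B and BBC3 remained called higher under every alternative run: TNFRSF10B at log2 fold changes of 0.31 to 0.42 (edgeR, DESeq2 or limma-voom adjusted p 2.20e-09 to 3.96e-04) and BBC3 at 0.32 to 0.47 (adjusted p 0.00144 to 0.0397). Of 126 values for the 9 genes, 123 stayed on their side of the threshold. The other 3 newly passed: MDM4 with library size alone (0.22), and BAX with the replicate block (-0.13, adjusted p 0.0486) or without oeALKBH5 replicate 3 (-0.20, in a range of -0.20 to -0.069 when each library was left out). On FPKM, BAX passed without oeALKBH5 replicate 3 (limma, -0.15, adjusted p 0.0339). On counts, the sign of 4 estimates that did not pass changed in some alternatives, with ranges of -0.05 to 0.12 for PMAIP1, -0.49 to 0.10 for FAS, -0.06 to 0.15 for TNFRSF10A and -0.10 to 0.02 for SESN1. On FPKM it changed for 2, BAX (0.0069 without oeALKBH5 replicate 2) and SESN1 (-0.0076 without Control replicate 1). Calls over all genes ran from 4878 to 6468 with counts and from 4245 to 5824 with FPKM. Transcript calls, 461 over the whole table, were 0 with the replicate block and 7 to 160 when a library was left out. Usage calls, 25, were 12 with the block and 12 to 27 when a library was left out. The cause was not tested. Same-numbered libraries did not deviate together (correlations -0.0193, 0.0162 and -0.0123). Whether they were handled in pairs cannot be told from these correlations. With the block ALKBH5 had an adjusted p of 0.0538. Of the named genes of the lists LUM alone lost its call, in 3 alternatives, among them DESeq2 (adjusted p 0.0828). FAS rests on 20 to 42 counts in each library; what sets its wide interval was not tested.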
